A study of Homo sapiens with 12 samples.

Results

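THP-1, a human monocytic leukaemia line, was compared after 3 h in 0.1% poultry dust extract (2 arrays) and in medium alone (2 arrays). These are 4 of the 12 Illumina HumanHT-12 arrays of the series, and they were taken by their titles. The control titles give no time in culture. All cells, control or treated, had been serum-starved overnight for 16 to 18 h before medium or extract was added. The other 8 arrays hold THP-1 cells after 1 h of the same extract (2), and BEAS-2B bronchial epithelial cells, a virus-immortalized line, in medium or in 0.25% extract for 1 h or 3 h (2 each). They share one fit with the 4 compared arrays, so they also enter the normalization, the detection filter, the choice of probe and the estimate of spread. Otherwise they serve below to show the timing and the contrast between lines. The 6 h time that the series' design mentions was not analysed here. The labels do not say whether the 2 arrays of a group came from separate cultures, so each p-value measures the spread between arrays, which may be technical.

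Monocytes sense microbial products in organic dust through Toll-like and NOD-like receptors, which signal through adaptor proteins and kinases to NF-kB, AP-1 and interferon regulatory factors. These factors switch on genes in waves, first regulators, feedback inhibitors and cytokines and later enzymes and surface proteins. While they respond, monocytes are known to lower many genes of their resting program, including factors of the progenitor state and, in dividing lines, genes of the cell cycle. THP-1 is a dividing line, so genes of all these kinds could be measured in it.

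The source name of the THP-1 arrays reads A459 while the cell line field reads THP-1, so the line was checked on its markers. All 4 compared arrays carried a monocyte pattern: 18 of 19 monocyte markers were detected on both control arrays and 18 on both 3 h arrays, against 3 on the BEAS-2B control arrays. Of 13 epithelial markers 0 were detected in THP-1 control, 0 at 3 h and 11 in BEAS-2B control. Of 15 markers listed for the A549 line 3 were detected in THP-1 control, 4 at 3 h and 7 in BEAS-2B control. Lymphocyte markers were detected for 2 of 11 genes in control and 2 at 3 h, and fibroblast markers for 0 of 10 in both. Probes detected per array numbered 16043 and 15864 in control and 14977 and 15402 at 3 h. The raw upper quartile of signal was 164 and 157 in control and 126 and 127 at 3 h, so the dust arrays were dimmer before normalization. The part of that brightness in the falls described below was not tested, and the lists' counts under median scaling are given beside them where they moved most. In bulk RNA, fewer cells of a type and less RNA per cell cannot be told apart.

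Levels below are log2 intensities after background correction and quantile normalization, and a difference is 3 h dust minus control with its standard error from limma (n = 2 arrays a group). A gene is said to have risen or fallen where its adjusted p, taken over all 15489 features tested, was under 0.05. Of these features 2966 rose (19.1%) and 4101 fell (26.5%), together 45.6%. Both dust arrays lay above both control arrays for 29.8% of features and below them for 38.2%. All 2966 rises and 4100 of the 4101 falls had groups that did not overlap. Among the 11422 genes with a symbol, from which the gene lists below are drawn, 2182 rose (19.1%) and 3426 fell (30%). Among the 13317 features detected on both arrays of control or of 3 h, 21.5% rose and 29.5% fell.

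The falls were many and mostly small, whereas the rises had a long upper tail. The median called fall was 1.93-fold and the median called rise 1.96-fold, but the 90th percentile was 3.54-fold for falls and 6.29-fold for rises. Of the falls 2221 were under 2-fold, and of the rises 1537. At 2-fold or more 1880 features fell (12.1%) and 1429 rose (9.23%). At 4-fold the order turned, with 288 falls (1.86%) and 528 rises (3.41%), and at 8-fold there were 33 falls (0.213%) and 231 rises (1.49%). The largest fitted fall was 56.3-fold and the largest fitted rise 542-fold, neither of them exact because the lower group held at least 1 array at background.

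Rises were least frequent at high control levels. Among the 12393 features detected on both control arrays 31.6% fell and 17.3% rose. When these were divided into 4 equal bins by their level in control, 26.7% fell in the lowest bin, 31.8% and 36.6% in the middle bins and 31.5% in the highest. The share that rose was 21.3% and 21.8% in the lower bins, 17.9% in the next and 8.13% in the highest. Over the 13317 features, which include those detected at 3 h alone, the lowest bin held 36.9% rises and 18.3% falls, but a feature that enters through its 3 h level is low in control by that choice. In all, 869 features were detected on both control arrays and on neither 3 h array, of which 753 were called lower. The reverse held for 558 features, of which 539 were called higher. A feature in the lowest bin has little room to fall above background, which the array cannot measure.

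**Figure D1:**
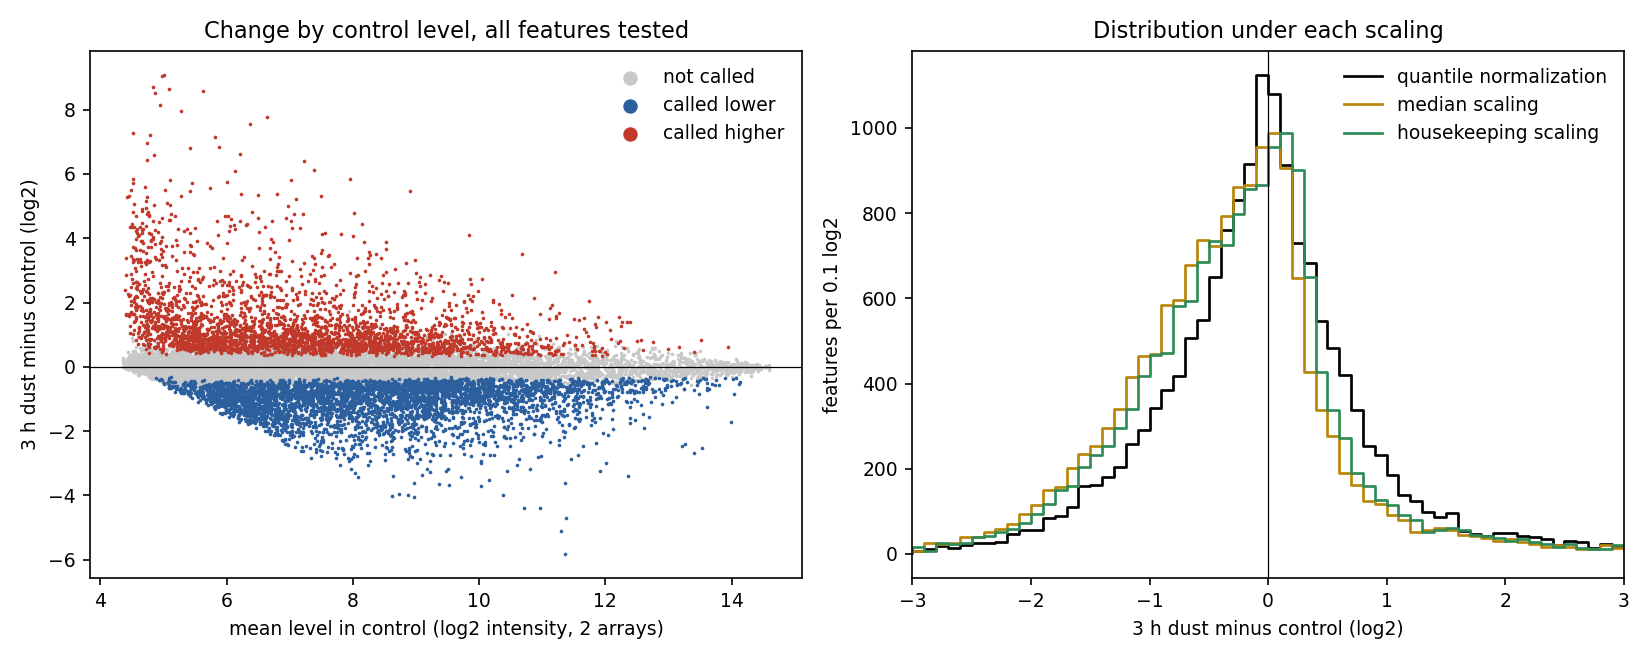
Left, the difference 3 h dust minus control (log2, y axis) against the mean control level (log2 intensity of 2 arrays, x axis) for all 15489 features, coloured by call. Right, the number of features per 0.1 log2 of difference under quantile normalization and under median and housekeeping scaling: the called falls spread over middle and high control levels, and median scaling moves the whole distribution down.

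The size of the fall depends on how the arrays are put on one scale. Quantile normalization gives each array the same distribution of values and a median difference of -0.05 over all features. Scaling each array to its median moved this median to -0.30 and scaling to housekeeping genes moved it to -0.20. The calls then split into 1650 higher and 6046 lower with median scaling (78.6% of calls lower) and 1934 higher and 5387 lower with housekeeping scaling (73.6% lower), against 58% lower with quantile normalization. More features fell than rose under every setting tried, but the share of the transcriptome that fell is tied to this choice. The 10 housekeeping genes measured had a median difference of 0.00, with 1 called higher and 0 lower, or 0 and 2 with median scaling.

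Few of the falls were called at 1 h. At 1 h 195 features rose (1.26%) and 60 fell (0.387%) against the same controls, together 1.65%. The 1606 named genes that fell at least 2-fold by 3 h had a median difference of -1.42 at 3 h and -0.23 at 1 h, and 26 of them were called lower at 1 h. Set against the 1 h arrays, a comparison that shares the 3 h arrays with the selection, 1536 of them were lower at 3 h (22.6% of all features were lower, 16.8% higher and 39.5% either), with a median of -1.21. The 1 h and the 3 h comparisons with control share their control arrays. The genes that fell at least 2-fold spanned a median of 32.5 kb of genome, those that rose at least 2-fold 26.1 kb and all named genes tested 27.2 kb.

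**Figure D2:**
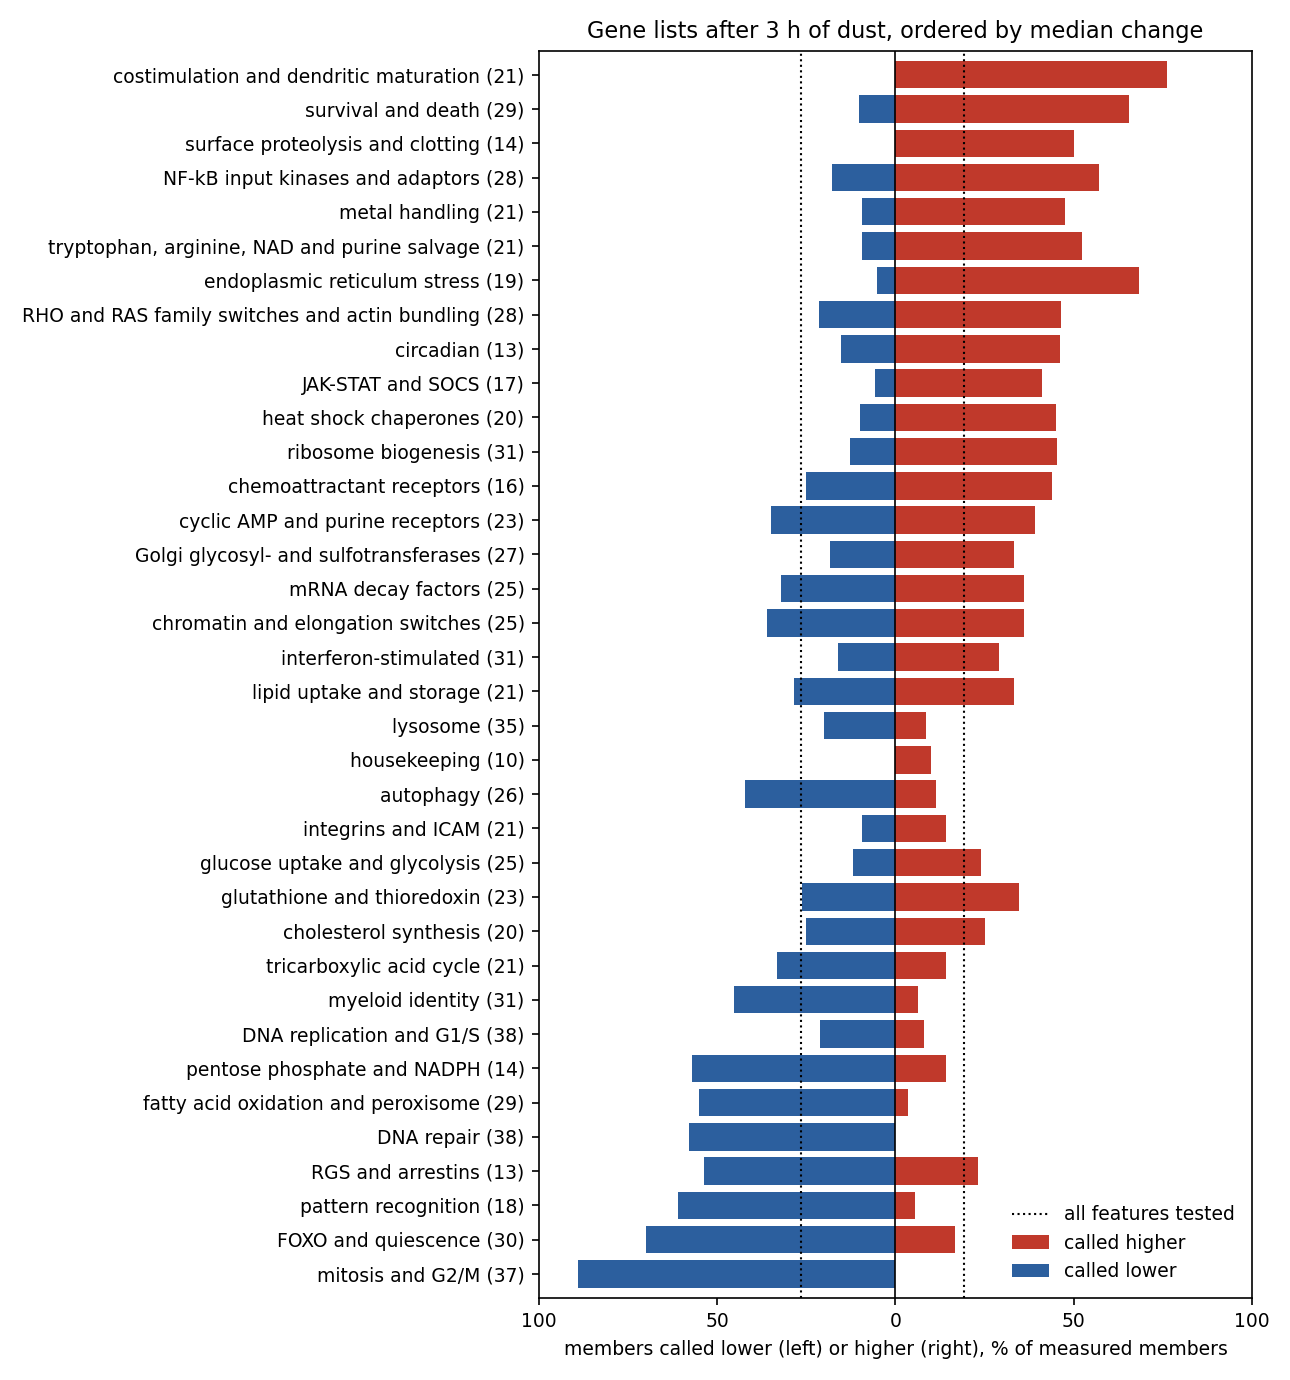
Share of the measured members of each gene list (number measured in brackets) called higher (right) and called lower (left) at 3 h, ordered by the list's median difference. The dotted lines mark the shares over all features, 19.1% higher and 26.5% lower: mitosis genes lie far to the left with 33 of 37 lower and costimulation genes far to the right with 16 of 21 higher.

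Among the gene lists with more falls than rises were those of the progenitor blood program, cell division, FOXO targets, pattern recognition, and mitochondrial and NADPH metabolism. The plot of the lists shows the share of each list called in either direction, to be read beside the 30% of named genes that fell. Genes from several of these lists stood among the largest single falls.

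**Figure D3:**
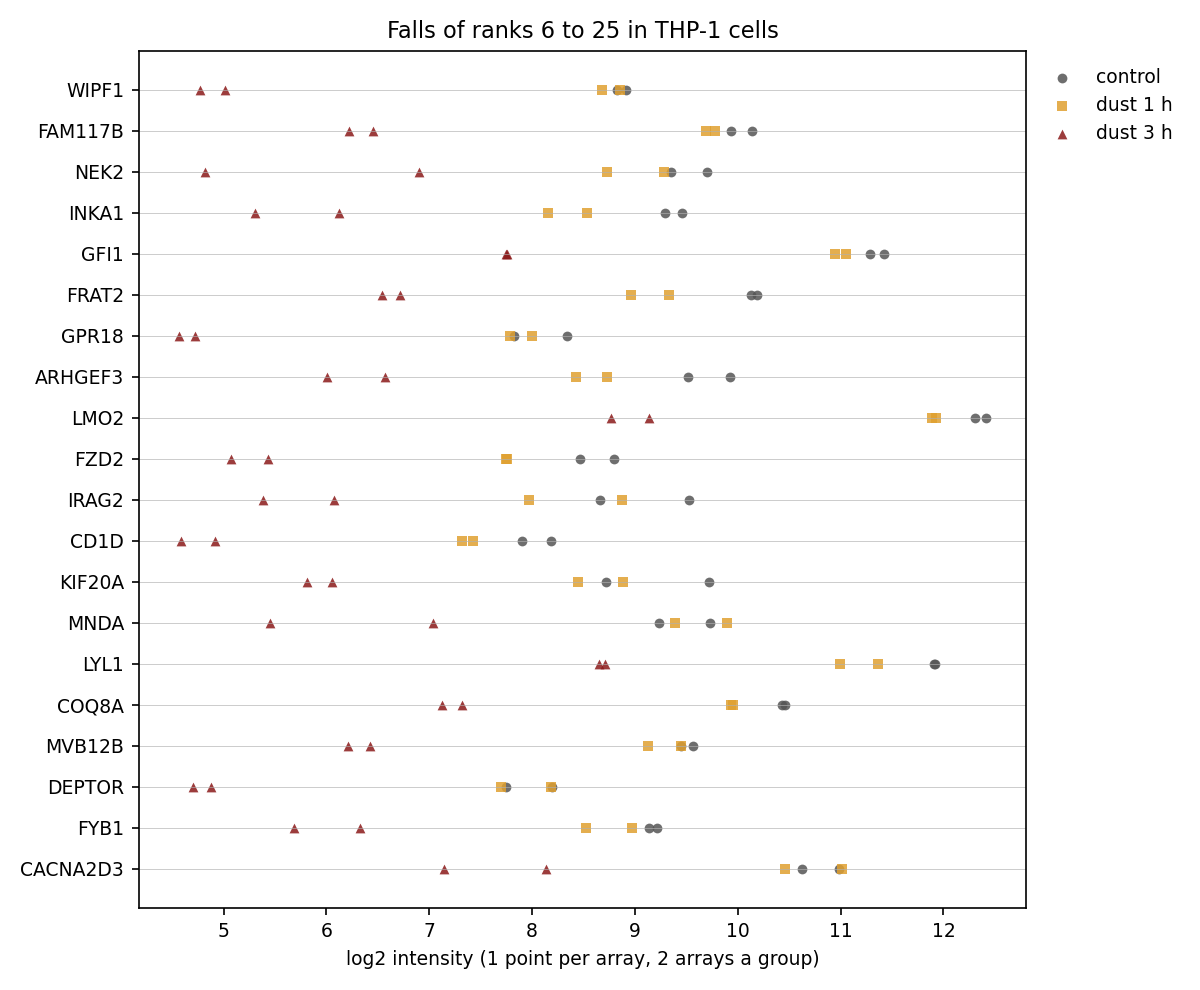
Log2 intensity (x axis) on each of 6 THP-1 arrays (2 control, 2 dust 1 h, 2 dust 3 h) for the genes ranked 6 to 25 by the size of their fall at 3 h. For GFI1 and LMO2 the 1 h points lie nearer to the control points than to the 3 h points on the left.

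Blood-cell transcription factors were among the largest falls. GFI1, a repressor that guides granulocyte and stem-cell fate, measured 11.29 and 11.43 in control and 7.75 and 7.76 after dust. The groups lay far apart, and the fall was 12.2-fold (difference -3.60 ± 0.12, adjusted p = 2.83e-08). LMO2, the bridging protein of the blood progenitor transcription complex, measured 12.30 and 12.41 in control and 9.13 and 8.77 after dust, and fell 10.6-fold (-3.41 ± 0.16, adjusted p = 1.46e-07). LYL1, a helix-loop-helix partner in that complex, measured 11.91 and 11.92 in control and 8.71 and 8.65 after dust, and fell 9.43-fold (-3.24 ± 0.19, adjusted p = 7.65e-07). None of these 3 genes had overlapping groups, and their 1 h differences were -0.36, -0.45 and -0.74.

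The myeloid identity list fell in part: 2 of its 31 measured members rose and 14 fell (median -0.34, differences from -4.40 to 1.18). MYB, which keeps progenitors dividing, measured 12.50 and 12.87 in control and 11.05 and 11.22 after dust, a fall of 2.93-fold (adjusted p = 1.84e-05). CEBPA, which directs progenitors into the myeloid lineage, measured 12.29 and 12.50 in control and 10.79 and 11.48 after dust and fell 2.4-fold (adjusted p = 0.0127), a call that was lost when either control replicate 2 (0.0708) or 3 h replicate 1 (adjusted p = 0.112) was left out. KLF4, a monocyte differentiation factor, fell 3.66-fold and the receptor of macrophage colony-stimulating factor, CSF1R, 2.13-fold. Both groups were apart for each of them. KIT, the stem cell factor receptor, was at background on both dust arrays and fell at least 3.81-fold. By contrast SPI1, the master factor of the myeloid lineage, rose 2.26-fold (adjusted p = 0.000121) and CSF2RA, a GM-CSF receptor chain, 1.52-fold, the latter call being lost without control replicate 2 or either 3 h array (adjusted p from 0.0604 to 0.183). The granule genes ELANE, PRTN3, AZU1, CTSG and LYZ and the calcium-binding genes S100A8 and S100A9 were not called in either direction. Of the 18 monocyte markers tested 9 fell and 1 rose, with 18 still detected, and 5 fell without control replicate 2. The differences of these markers ran from -4.69 to 1.18 (median -0.31), and -4.69 was also the lowest value of all named genes tested. IRF8, a monocyte lineage factor, measured 12.37 and 12.68 in control and 12.97 and 12.94 after dust and was not called (adjusted p = 0.211), its dust arrays lying slightly above its control arrays.

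Other large falls touched adaptors and signalling proteins of leukocytes. WIPF1, a partner of the actin regulator WASP, measured 8.91 and 8.83 in control and 5.02 and 4.77 after dust. It was at background on both dust arrays, so the fall was at least 8.19-fold (adjusted p = 3.1e-08). FYB1, an adaptor of leukocyte adhesion, measured 9.21 and 9.14 in control and 6.32 and 5.69 after dust, and 1 of its dust arrays was below the detection limit, so its fitted fall of 8.99-fold is not exact. CD1D, which presents lipid antigens, fell at least 4.62-fold, and so did the lipid receptor GPR18, by at least 4.75-fold. Both were at background at 3 h and clear of it in control. FZD2, a WNT receptor, fell at least 6.96-fold and FRAT2, which binds the WNT pathway kinase GSK3, fell 11.6-fold. DEPTOR, an inhibitor of the growth kinase mTOR, fell at least 4.39-fold. COQ8A, needed to make coenzyme Q, fell 9.34-fold, MVB12B, a subunit of the ESCRT sorting complex, 9.11-fold, ARHGEF3, an activator of RHOA, 10.8-fold, FAM117B 13-fold and the calcium channel subunit CACNA2D3 8.96-fold. INKA1, which inhibits the kinase PAK4, IRAG2 and the nuclear antigen of myeloid cells MNDA each had 1 dust array at background, with fitted falls of 12.6-, 10.3- and 9.45-fold.

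Genes of mitosis fell together. Of the 37 members measured 33 fell and 0 rose (median -1.78), and leaving out 1 array at a time gave between 28 and 36 falls. NEK2, a kinase of centrosome separation, measured 9.35 and 9.70 in control and 4.82 and 6.90 after dust, with 1 dust array at background, and its fitted fall was 12.7-fold (adjusted p = 0.000204). KIF20A, a kinesin of cell division, measured 8.71 and 9.72 in control and 5.81 and 6.05 after dust, also with 1 dust array at background, and its fitted fall was 9.73-fold (adjusted p = 1.06e-05). CDC20, the activator of the anaphase-promoting complex, measured 12.85 and 13.68 in control and 10.41 and 11.33 after dust and fell 5.26-fold (adjusted p = 0.000227). All dust arrays lay below all control arrays for these 3 genes, but the dust arrays of CDC20 and NEK2 differed from each other by more than those of GFI1 did.

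Further members were PLK1, the polo kinase of mitotic entry, at 6.79 and 7.45 in control and 4.89 and 5.77 after dust (at least 2.44-fold lower, adjusted p = 0.000865, both dust arrays at background), CCNB2, a cyclin of the same step, at 9.84 and 10.62 in control and 7.07 and 7.89 after dust (6.72-fold lower, adjusted p = 5.61e-05), and HMMR, a spindle protein, at 9.72 and 10.63 in control and 7.43 and 7.46 after dust (6.64-fold lower, adjusted p = 3.38e-05). The groups did not overlap for any of them. The 4 members not called were PLK4, AURKB, KIF2C and NCAPG, with differences of -0.62, -1.39, -0.88 and -1.08. All 4 differences were below 0, and with median or housekeeping scaling all 37 members were called lower.

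Promoters of mitotic genes often hold a CCAAT box and a TTTGAA element, the cell cycle homology region of the literature, and both were searched on both strands of the 300 bases from 250 before to 50 after each RefSeq start (GRCh38.p14). Of the 37 mitosis genes 33 had a promoter in the table. CCAAT stood in 26 of these (78.8%), against 37.0% of the 9046 promoters of protein-coding genes tested, and TTTGAA in 23 (69.7%), against 9.92%. Both stood together in 20 (60.6%), against 4.24%. These 3 promoters are printed because they carry the pair that the falling list shares, with both elements in capitals on whichever strand they lie.
PLK1, chr16:23678639-23678938, + strand: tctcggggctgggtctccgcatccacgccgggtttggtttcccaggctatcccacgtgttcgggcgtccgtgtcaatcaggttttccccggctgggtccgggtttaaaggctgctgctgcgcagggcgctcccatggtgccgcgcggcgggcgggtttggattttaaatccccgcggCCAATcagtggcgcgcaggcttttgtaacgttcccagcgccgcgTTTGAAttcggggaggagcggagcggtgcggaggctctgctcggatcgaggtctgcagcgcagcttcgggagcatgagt
CCNB2, chr15:59104896-59105195, + strand: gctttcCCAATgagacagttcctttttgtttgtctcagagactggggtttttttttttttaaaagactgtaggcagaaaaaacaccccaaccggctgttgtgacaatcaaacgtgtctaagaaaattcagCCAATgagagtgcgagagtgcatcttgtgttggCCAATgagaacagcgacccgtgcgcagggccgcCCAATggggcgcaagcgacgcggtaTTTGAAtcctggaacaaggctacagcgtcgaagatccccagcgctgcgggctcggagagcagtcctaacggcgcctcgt
CDC20, chr1:43358731-43359030, + strand: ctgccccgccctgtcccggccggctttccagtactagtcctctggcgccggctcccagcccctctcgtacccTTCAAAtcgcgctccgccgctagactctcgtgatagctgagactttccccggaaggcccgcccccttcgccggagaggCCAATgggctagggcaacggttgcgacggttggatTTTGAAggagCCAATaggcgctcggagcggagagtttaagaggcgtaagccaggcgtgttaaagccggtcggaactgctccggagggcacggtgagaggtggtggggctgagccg
Over the 1321 matched promoters of genes that fell at least 2-fold, mitosis genes among them, TTTGAA stood in 13.6%. CCAAT stood in 37.5% of these, near the share of all tested, and both together in 6.43%. A match describes the letters only and is no evidence that a factor bound there.

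Genes of DNA repair fell as well, and those of DNA synthesis gave a less certain count. Of 38 DNA repair genes 22 fell and 0 rose (median -0.58), and the number of falls was 14 without control replicate 2 or without 3 h replicate 1 and 27 with median scaling. APEX1, the main endonuclease of base excision repair, measured 11.94 and 11.99 in control and 9.89 and 9.93 after dust and fell 4.14-fold (adjusted p = 6.87e-07). NTHL1, a glycosylase of the same pathway, measured 8.25 and 7.80 in control and 4.84 and 5.78 after dust, was at background on both dust arrays and fell at least 4.57-fold (adjusted p = 2.52e-05). The groups were clearly apart for both. Of 38 genes of DNA replication and the G1/S step 3 rose and 8 fell (median -0.42). That count of falls ran from 5 to 19 when 1 array was left out and was 21 with median scaling, so the number for this list is uncertain.

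FOXO targets and genes of quiescence, which starved or resting cells are known to raise, fell as well. Of 30 measured 21 fell and 5 rose (median -1.24). CCNG2, a cyclin linked to cell cycle arrest, measured 8.13 and 8.36 in control and 5.12 and 5.26 after dust and fell at least 5.33-fold (adjusted p = 4.85e-06), being at background on both dust arrays. SESN1, a stress-induced inhibitor of mTOR signalling, measured 9.22 and 9.70 in control and 6.94 and 7.22 after dust and fell 5.21-fold (adjusted p = 0.000189). PINK1, a kinase that marks damaged mitochondria, measured 8.81 and 8.84 in control and 6.32 and 6.20 after dust and fell 5.91-fold (adjusted p = 2.73e-07). No control array of these genes came near a dust array. FBXO32, a ubiquitin ligase adaptor of muscle wasting, fell at least 3.77-fold, and CDKN1B, the inhibitor p27 of cyclin-dependent kinases, fell 2.28-fold. TXNIP, which restrains thioredoxin and glucose uptake, had one of the brightest probes in control cells, at 13.27 and 13.78 in control and 10.46 and 11.52 after dust, and fell 5.8-fold (adjusted p = 7.02e-05). The 5 members that rose were ARRDC3, ARRDC4, BCL6, FOXO1 and BTG1, of which FOXO1 was not called with median scaling (adjusted p = 0.311), with housekeeping scaling (adjusted p = 0.192), or without control replicate 1 or 3 h replicate 2. BCL6, a transcriptional repressor, rose 7.88-fold and BTG1, an antiproliferative gene, 4.14-fold.

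Many receptors that sense microbial products fell. Of 18 pattern recognition genes measured 11 fell and 1 rose (median -1.24, or -0.67 without background correction, or -0.23 with the 8 members at background in 1 whole group set to their bounds). NOD2, the receptor of bacterial muramyl dipeptide, measured 8.30 and 7.84 in control and 6.32 and 6.68 after dust and fell 2.97-fold (adjusted p = 0.0013). TLR4, the endotoxin receptor, measured 6.58 and 6.75 in control and 5.83 and 6.01 after dust and fell 1.68-fold (adjusted p = 0.00351), with 1 dust array below the detection limit. TLR2, the lipopeptide receptor, measured 5.73 and 6.00 in control and 4.62 and 4.61 after dust and was at background on both dust arrays, so its fall was at least 1.02-fold (adjusted p = 0.00032). The groups did not overlap, but the levels of both Toll-like receptors were low in control, which leaves the size of the fall uncertain. TLR1 and TLR6, which pair with TLR2, fell at least 1.18-fold (TLR1) and at least 1.39-fold (TLR6), and NLRP12, a brake on NF-kB, fell at least 2.26-fold, all 3 being at background at 3 h. The inflammasome sensor NLRP3 fell 2.62-fold. CLEC5A, a myeloid lectin, was the 1 that rose (at least 2.61-fold, at background in control). CD14, the endotoxin co-receptor, measured 8.57 and 8.46 in control and 8.99 and 8.55 after dust and was not called (adjusted p = 0.239), with overlapping groups.

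Falls outnumbered rises in several metabolic lists. In fatty acid oxidation and the peroxisome 16 of 29 genes fell and 1 rose (median -0.52), or 22 and 0 with median scaling. In the pentose phosphate and NADPH list 8 of 14 fell and 2 rose (median -0.51). IDH1, the cytosolic isocitrate dehydrogenase that makes NADPH, measured 10.86 and 11.02 in control and 8.15 and 8.10 after dust and fell 7.02-fold (adjusted p = 1.79e-07). ME1, malic enzyme, another source of NADPH, measured 8.48 and 8.25 in control and 10.79 and 10.88 after dust and rose 5.52-fold (adjusted p = 8.64e-07). The groups did not overlap for either gene. Of 21 genes of the tricarboxylic acid cycle 7 fell and 3 rose (median -0.20), a share of falls near that of named genes, or 11 and 2 with median scaling. Of 72 respiratory chain subunits 14 fell and 3 rose (median -0.12), a share below that of named genes. The respiratory chain count was 21 falls with median scaling and 9 without 3 h replicate 1.

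Many genes of mitochondrial translation fell, and the median of the cytosolic ones was near 0. Of 76 mitochondrial ribosomal proteins 35 fell and 5 rose (median -0.34), with 21 falls without control replicate 1 or without 3 h replicate 1 and 48 with median scaling. Of 15 mitochondrial aminoacyl-tRNA synthetases 9 fell and 1 rose (median -0.60), with 5 falls without control replicate 2. Of 69 cytosolic ribosomal proteins 6 fell and 4 rose, with a median of -0.02 that turns to 0.09 with median scaling and 0.19 with housekeeping scaling. Of 16 cytosolic synthetases 5 fell and 4 rose (median 0.00), or 8 and 2 with median scaling. The median control level was 14.03 for cytosolic and 9.37 for mitochondrial ribosomal proteins, where the highest control level of any detected feature was 14.6. The part of level in this contrast was not tested. No test of the difference between these families was run.

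In several further groups falls outnumbered rises, as they did over all named genes. Of 16 subunits of the vacuolar ATPase, the proton pump of lysosomes, 8 fell and 2 rose (median -0.35), and of 26 autophagy genes 11 fell and 3 rose (median -0.05). Of 13 regulators of G protein signalling and arrestins 7 fell and 3 rose (median -0.85), and of 15 KLF and SP factors 7 fell and 1 rose (median -0.31). Shares of falls in these groups stand beside 30% of named genes. Of 311 ZNF zinc finger genes 97 fell and 45 rose (median -0.21), or 158 and 18 with median scaling, so their share of falls was near that of named genes.

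Among the 500 named genes with the brightest probes in control cells, the largest falls included LMO2 and TXNIP above. IRX3, a homeobox factor, measured 13.32 and 13.48 in control and 10.72 and 10.71 after dust and fell 6.46-fold (adjusted p = 1.31e-07). STING1, the adaptor of cytosolic DNA sensing, measured 12.14 and 12.10 in control and 10.33 and 10.03 after dust and fell 3.83-fold (adjusted p = 3.08e-05). PYCARD, the inflammasome adaptor ASC, measured 12.61 and 12.62 in control and 10.72 and 10.70 after dust and fell 3.73-fold (adjusted p = 4.16e-06). All 3 kept a level far above background after the fall. GRK2, a kinase that silences G protein-coupled receptors, fell 3.33-fold and CA2, a carbonic anhydrase, 3.29-fold. In BEAS-2B cells CA2 rose, with a difference of 1.62.

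The named falls were also sampled at every 60th rank, from 30 to 3390, which gave 57 genes. The 39 of these still detected on both dust arrays fell between 1.31- and 7.68-fold (median 1.92-fold), and 0 of the 57 were called lower at 1 h. Near the top P2RY2, a receptor of extracellular nucleotides, fell 7.68-fold, ANKRD55, at background at 3 h, at least 2.38-fold, CKAP2, a spindle protein, 4.23-fold, KDM3A, a histone demethylase, 3.94-fold and SLC39A3, a zinc importer, 3.45-fold. Lower in the order LMO4, a LIM-domain transcription regulator, fell 2.91-fold, ACACB, an acetyl-CoA carboxylase, 2.29-fold, RFXANK, which helps switch on class II genes, 1.97-fold, and EXOSC7, a subunit of the RNA exosome, 1.89-fold. BRCA1, a DNA repair gene, measured 8.09 and 8.58 in control and 6.81 and 7.94 after dust and fell 1.95-fold (adjusted p = 0.024). ZEB2, a repressor of epithelial genes, fell 1.83-fold (adjusted p = 0.0416), DCTN1, a subunit of the dynactin motor complex, 1.42-fold (adjusted p = 0.0302) and TENT2, a poly(A) polymerase, 1.31-fold (adjusted p = 0.0382). The calls of these last 4 were each lost when certain single arrays were left out: BRCA1 without control replicate 2 or 3 h replicate 1, DCTN1 without any 1 except control replicate 1, ZEB2 without any 1 of the 4 arrays, and TENT2 without any 1 except 3 h replicate 1. BRCA1 and DCTN1 were not called by their other probe either (adjusted p = 0.102 and 0.303).

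The rises outside the largest 50 are described next. When named genes that rose with no overlap between groups were ordered by their fitted change, ranks 51 to 250 formed the mid-ranked risers, 200 genes from 27.6-fold to 6.31-fold. Rank 50 lay at 28-fold. Since their change at 3 h chose them, it is given as a description, and the adjusted p beside a gene is that of the fit over all features. Of the 200 genes 87 were detected on neither control array, and the median control level was 5.9, against 7.59 for all features.

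A sorting of the 200 genes by their known role, made after their values were seen, placed 175 of them in 12 groups. The largest groups were 25 transcription and chromatin factors outside NF-kB and 25 kinases, phosphatases, GTPase regulators and other signalling proteins. There were 21 secreted proteins, 21 surface receptors and surface proteins, 18 metabolic enzymes, 16 genes of vesicle traffic, membranes and cytoskeleton, 11 transporters and channels and 11 genes of survival, autophagy and stress. The 10 NF-kB subunits and inhibitors, 9 noncoding or pseudogene transcripts, 6 genes of ubiquitin, RNA or DNA binding and 2 interferon-induced GTPases made up the rest, and 25 genes were not classed.

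Some of these genes had risen by 1 h. At that time 58 of the 200 genes were called higher (1.26% of all features were), with a median difference of 0.45. The 1 h comparison uses the same control arrays on which the genes were chosen. Of the 10 NF-kB genes 7 were called at 1 h (median 2.17), of the 25 signalling proteins 10 (median 0.76) and of the 25 other transcription factors 9 (median 0.42). Of the 21 secreted proteins 3 were called at 1 h (median 0.47) and of the 18 metabolic enzymes 3 (median 0.13). Against the 1 h arrays 182 of the 200 were higher at 3 h, with a median of 2.81, but that comparison shares the 3 h arrays on which the genes were chosen, and 16.8% of all features were higher in it.

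**Figure D4:**
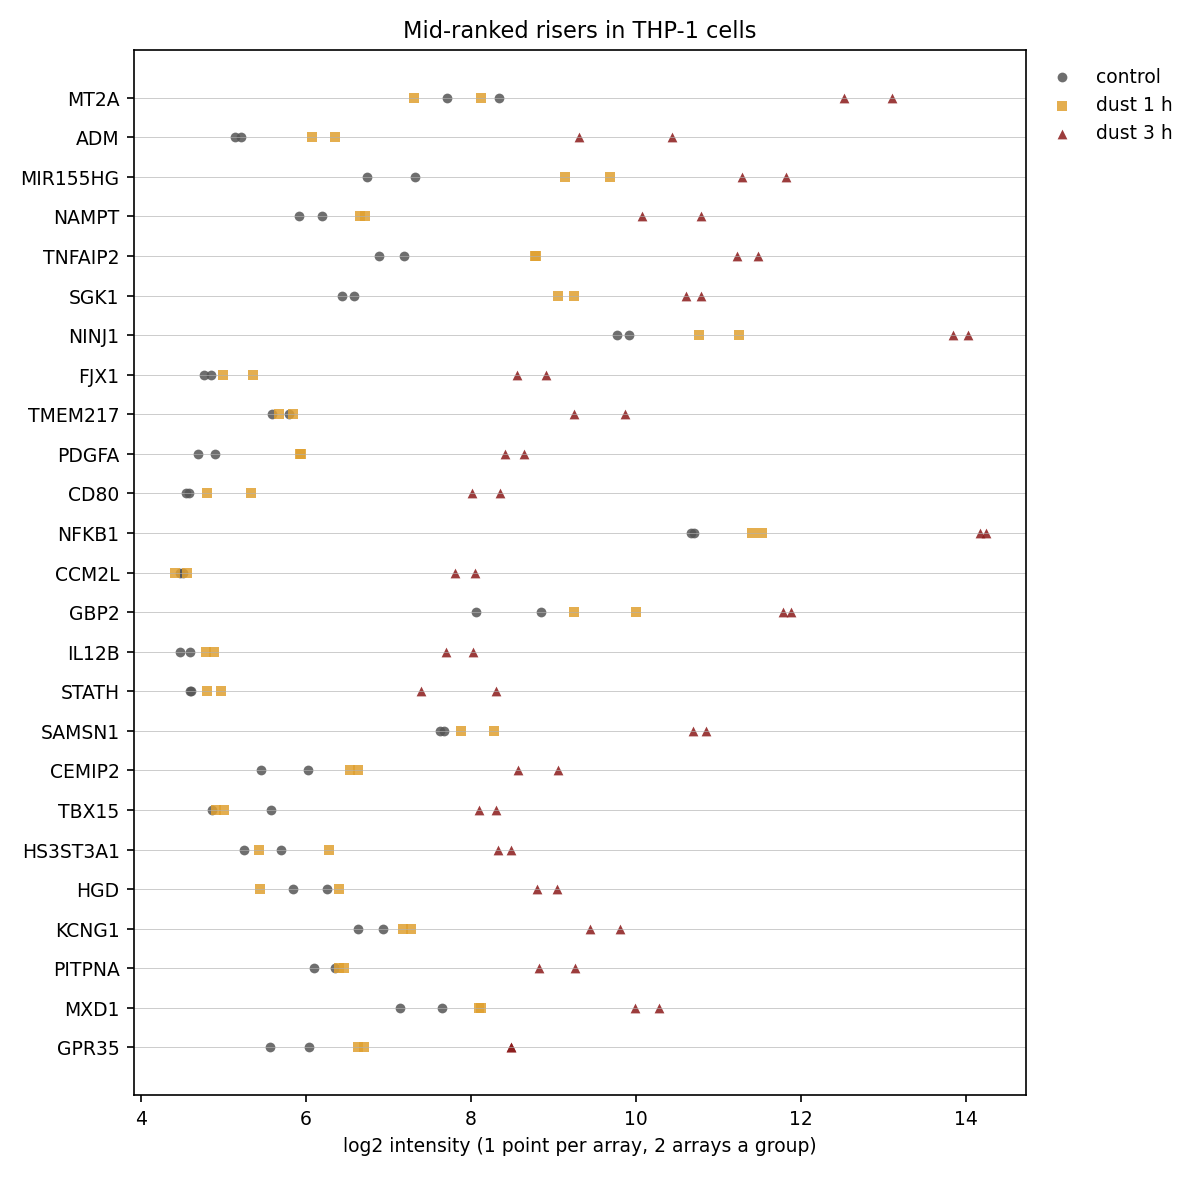
Log2 intensity (x axis) on each of 6 THP-1 arrays (2 control, 2 dust 1 h, 2 dust 3 h) for the 25 mid-ranked risers taken at every 8th rank. NFKB1 and SAMSN1 show tight groups at 3 h, and ADM and MIR155HG show wider ones.

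Metals, metabolism and membranes supplied several of the genes named at every 8th rank. MT2A, a metallothionein that binds zinc and copper, measured 7.71 and 8.34 in control and 12.52 and 13.11 after dust and rose 27.6-fold (4.79 ± 0.28, adjusted p = 7.45e-07). NAMPT, the rate-limiting enzyme of NAD salvage, measured 5.92 and 6.20 in control and 10.79 and 10.08 after dust and rose 20.7-fold (adjusted p = 1.15e-06). HGD, an enzyme of tyrosine breakdown, measured 6.25 and 5.84 in control and 8.81 and 9.05 after dust and rose 7.36-fold (adjusted p = 1.39e-05) by its brighter probe, whereas its other probe gave a difference of 0.88 (adjusted p = 0.0221). When an array was left out, the brightest probe was chosen anew on the remaining arrays. Without 3 h replicate 1 (difference 0.95) or the other 3 h array (difference 0.85) the values were those of the other probe. The brighter probe was thus not examined without a 3 h array. No group overlapped with another in these genes. HS3ST3A1, which sulfates heparan chains, was at background in control and rose at least 6.62-fold. CEMIP2, a cell-surface hyaluronidase, rose 8.38-fold with 1 control array at background, the potassium channel subunit KCNG1 7.18-fold and the phospholipid carrier PITPNA 7.06-fold. LPL, lipoprotein lipase, at rank 52, measured 6.81 and 7.33 in control and 11.77 and 11.89 after dust and rose 27-fold (adjusted p = 6.74e-07).

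Of the 21 secreted and 21 surface proteins 14 of each were detected on neither control array. ADM, the vasodilator peptide adrenomedullin, measured 5.14 and 5.21 in control and 10.44 and 9.31 after dust and rose at least 18.2-fold (adjusted p = 7.54e-07). PDGFA, a growth factor for fibroblasts and smooth muscle, measured 4.90 and 4.70 in control and 8.64 and 8.41 after dust and rose at least 7.18-fold (adjusted p = 1.17e-07). IL12B, the shared chain of interleukins 12 and 23, measured 4.48 and 4.60 in control and 7.70 and 8.02 after dust and rose at least 4.53-fold (adjusted p = 6.05e-07). All 3 were at background on both control arrays and clear of it on both dust arrays. CD80, a ligand of CD28 on T cells, rose at least 5.67-fold, and so did STATH, a calcium-binding protein of saliva, by at least 4.49-fold. GPR35, a G protein-coupled receptor, rose 6.44-fold with 1 control array at background. NINJ1, a membrane protein that ruptures the membrane in lytic cell death, was well above background in control, at 9.92 and 9.77 in control and 14.03 and 13.85 after dust, and rose 17-fold (4.09 ± 0.37, adjusted p = 1.18e-05).

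Signalling and transcription genes among these 25 included SGK1, a kinase of ion transport and survival, at 6.44 and 6.58 in control and 10.61 and 10.79 after dust (18.2-fold, adjusted p = 1.93e-05), NFKB1, the precursor of the p50 subunit, at 10.67 and 10.70 in control and 14.24 and 14.17 after dust (11.5-fold, adjusted p = 1.81e-05), and SAMSN1, a negative regulator of immune cell activation, at 7.68 and 7.62 in control and 10.85 and 10.69 after dust (8.69-fold, adjusted p = 2.29e-07). The dust arrays of these 3 genes lay close to each other and far above control. MXD1, a MAX partner that opposes MYC, measured 7.15 and 7.65 in control and 9.98 and 10.29 after dust and rose 6.67-fold, and TBX15, a T-box factor, rose at least 5.73-fold. TNFAIP2, induced by TNF and linked to membrane nanotubes, measured 6.89 and 7.19 in control and 11.22 and 11.48 after dust and rose 19.8-fold (adjusted p = 0.000221). GBP2, an interferon-induced GTPase, measured 8.06 and 8.85 in control and 11.88 and 11.79 after dust and rose 10.4-fold (adjusted p = 2.92e-05). FJX1 and CCM2L, both at background in control, rose at least 8.29-fold (FJX1) and at least 4.75-fold (CCM2L), and TMEM217 rose 14.5-fold with 1 control array at background.

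Genes named for microRNAs or as their hosts were among the mid-ranked risers. MIR155HG, the host transcript of miR-155, a regulator of myeloid inflammation, measured 6.74 and 7.32 in control and 11.82 and 11.29 after dust and rose 23-fold (4.53 ± 0.52, adjusted p = 5.87e-05). The gene of miR-221 measured 4.95 and 4.79 in control and 8.93 and 8.45 after dust and rose at least 8.05-fold, and that of miR-302c measured 4.77 and 5.19 in control and 9.29 and 8.72 after dust and rose at least 10-fold. The gene of miR-223, a myeloid microRNA, measured 6.68 and 6.14 in control and 5.44 and 4.56 after dust and fell at least 1.49-fold (adjusted p = 0.0016). The probes are named for the microRNA genes or hosts, and which transcript each of them reads was not tested. Mature microRNA was not measured. The mature sequences (RefSeq, GRCh38.p14) are given with the seed, bases 2 to 8, in capitals, because the seed sets which targets a microRNA can pair with, and no pair of them shares a seed.
hsa-miR-155-5p, chr21:25573983-25574006, + strand: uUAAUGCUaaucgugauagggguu
hsa-miR-221-3p, chrX:45746180-45746202, - strand: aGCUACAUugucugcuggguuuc
hsa-miR-302c-3p, chr4:112648366-112648388, - strand: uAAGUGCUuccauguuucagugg
hsa-miR-223-3p, chrX:66018937-66018958, + strand: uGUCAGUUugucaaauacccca

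Promoters of the mid-ranked risers were searched in the same way for the kB consensus, the site named for NF-kB, and for TATAAA. Of 191 protein-coding genes 153 had a promoter in the table. The kB consensus stood in 31 (20.3%), against 35% of 40 promoters among the largest 50 risers, 14.1% of 1456 promoters of later risers, 13.5% of those that fell at least 2-fold and 13% of all tested. TATAAA stood in 21 (13.7%), against 32.5%, 7.97%, 4.92% and 5.85%. The ETS motif CCGGAAG stood in 3 (1.96%), against 19.2% of all tested, and the AP-1 motif TGANTCA in 7.19%, against 4.53%. No test was run on these shares. These 3 promoters are printed as examples of genes described here, with the kB consensus and TATAAA in capitals: NFKB1 holds the first, ADM the second and GADD45B both.
NFKB1, chr4:102501109-102501408, + strand: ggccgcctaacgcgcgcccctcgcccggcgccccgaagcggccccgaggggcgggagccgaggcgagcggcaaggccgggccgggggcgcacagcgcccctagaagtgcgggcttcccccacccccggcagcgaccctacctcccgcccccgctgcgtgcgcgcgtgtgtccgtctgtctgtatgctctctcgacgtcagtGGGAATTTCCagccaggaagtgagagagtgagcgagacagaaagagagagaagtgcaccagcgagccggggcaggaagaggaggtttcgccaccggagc
ADM, chr11:10304823-10305122, + strand: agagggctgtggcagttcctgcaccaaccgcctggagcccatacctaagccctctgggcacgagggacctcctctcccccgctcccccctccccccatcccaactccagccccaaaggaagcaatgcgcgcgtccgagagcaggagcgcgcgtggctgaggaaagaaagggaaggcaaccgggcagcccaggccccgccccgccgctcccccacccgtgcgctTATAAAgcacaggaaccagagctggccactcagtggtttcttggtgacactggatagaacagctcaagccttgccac
GADD45B, chr19:2475877-2476176, + strand: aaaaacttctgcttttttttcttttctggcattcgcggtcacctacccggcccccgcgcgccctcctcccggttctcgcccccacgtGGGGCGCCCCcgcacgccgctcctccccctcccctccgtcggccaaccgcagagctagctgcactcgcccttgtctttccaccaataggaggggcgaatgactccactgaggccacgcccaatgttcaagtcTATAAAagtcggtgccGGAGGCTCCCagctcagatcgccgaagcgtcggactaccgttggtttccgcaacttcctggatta
The match in NFKB1 lies 49 bases before the start, TATAAA lies 27 bases before it in ADM and 31 in GADD45B. These matches are descriptions of the letters and not of binding.

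Several pathway lists had more rises than falls, and mid-ranked risers were among their members. Shares of rises in these and the lists that follow are to be read beside the 19.1% of named genes that rose. A member at background in control may have entered through the group where it is high. Of 29 genes of cell survival and death 19 rose, 6 of them at mid rank, and 3 fell (median 1.43), or 17 and 6 with median scaling. TRAF1, an adaptor that blocks death signals from TNF receptors, measured 5.07 and 5.48 in control and 10.74 and 10.42 after dust, at background in both control arrays, and rose at least 29.9-fold (adjusted p = 4.61e-08). GADD45B, a stress and survival gene, measured 7.54 and 7.45 in control and 11.08 and 10.98 after dust and rose 11.6-fold (adjusted p = 4.09e-07). BCL2L1, which codes for BCL-XL, measured 8.92 and 8.82 in control and 11.48 and 11.46 after dust and rose 6.05-fold (adjusted p = 7.09e-07). Control and dust arrays were far apart for all 3 genes. The survival side also rose in BCL2A1 (2.44), CFLAR (2.00), MCL1 (0.77, not called without control replicate 1) and the PIM kinases PIM1 (2.47) and PIM2 (3.40). Death-promoting genes rose with them, namely BID at 9.34 and 9.10 in control and 11.90 and 12.27 after dust (7.3-fold, adjusted p = 5.87e-07), PMAIP1 (2.14) and BCL2L11 (at least 2.92-fold, at background in control). The 3 that fell were BCL2 (-0.95), BIK (-1.57) and the initiator caspase CASP9 (-0.66, not called without control replicate 1 or 3 h replicate 1).

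Adaptors and kinases that feed NF-kB moved in both directions. Of 28 measured 16 rose and 5 fell (median 0.75). IRAK2, a kinase that sustains Toll-like receptor signals, measured 7.04 and 6.57 in control and 12.31 and 12.05 after dust and rose 41.5-fold (adjusted p = 1.17e-06). MAP3K8, the kinase TPL2 that activates ERK, measured 6.66 and 6.33 in control and 12.15 and 11.54 after dust and rose 40.9-fold (adjusted p = 1.9e-05). TNIP1, which restrains NF-kB with A20, measured 8.87 and 8.82 in control and 12.08 and 12.06 after dust and rose 9.36-fold (adjusted p = 2.76e-07), and TRAF3, an adaptor of the alternative NF-kB pathway and of interferon signals, measured 6.32 and 6.20 in control and 8.99 and 8.80 after dust and rose 6.2-fold (adjusted p = 2.02e-07). In all 4 the groups were widely separated. The adaptor MYD88, shared by most Toll-like receptors, measured 8.05 and 8.20 in control and 6.64 and 7.08 after dust and fell 2.41-fold (adjusted p = 0.000241), and TAB1, CARD9 and PELI2 fell as well. IRAK3, a brake on this pathway, fell by its brighter probe (-0.70) and rose by its other probe (0.49, adjusted p = 0.0143), so its direction is unsettled.

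Costimulation and dendritic maturation genes rose in 16 of 21 cases, 8 of them at mid rank, and 0 fell (median 2.19). Of the 21 genes 8 were at background in 1 whole group, and the median was 2.11 with these set to their bounds. LAMP3, a marker of mature dendritic cells, measured 4.76 and 4.71 in control and 11.32 and 12.04 after dust and rose at least 64-fold (adjusted p = 1.01e-08). CD83, another such marker, measured 7.36 and 7.40 in control and 13.55 and 13.48 after dust and rose 70.3-fold (adjusted p = 2.32e-07). The chemokine receptor CCR7 (at least 4.32-fold), CD40 (10.5-fold) and ICOSLG (at least 11.4-fold) rose too. The control arrays of LAMP3, CCR7 and ICOSLG were at background, and no group overlapped in these genes. CD86, CD274, TNFSF15, TNFSF14 and CD200 were not called, although the other probe of TNFSF14 was lower (-0.78, adjusted p = 0.00706), with CD86 at 0.77 (adjusted p = 0.0538). CD86 was called higher in the authors' values (adjusted p = 0.0375), without background correction (0.0376), among features detected on all 4 arrays (0.0481), and without control replicate 2 (0.00853) or 3 h replicate 1 (0.0333). The 7 genes of class II presentation measured were not called in either direction, with a median of 0.13 that turns to -0.04 with median scaling. HLA-DRA among them measured 10.92 and 10.76 in control and 11.40 and 10.87 after dust (adjusted p = 0.244), and its other probe was higher (1.02, adjusted p = 0.0464). Of 24 TNF ligands and receptors 13 rose and 1 fell (median 0.86), or 11 and 4 with median scaling, and of 32 interleukins and their receptors 16 rose and 3 fell (median 0.72).

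In the JAK-STAT and SOCS list 7 of 17 genes rose and 1 fell (median 0.44), or 4 and 3 with median scaling and 4 and 2 without control replicate 1. STAT4, which carries interleukin 12 signals, measured 5.94 and 6.32 in control and 12.14 and 12.28 after dust and rose 67.8-fold (adjusted p = 1.6e-08). SOCS3, which blocks cytokine receptors, measured 4.75 and 4.69 in control and 9.27 and 8.92 after dust and rose at least 10.6-fold (adjusted p = 7.39e-06). STAT5A, which carries GM-CSF signals, measured 8.44 and 8.11 in control and 11.71 and 11.76 after dust and rose 11-fold (adjusted p = 2.26e-05). The rises in the list were large in these 3 genes, whose groups did not overlap.

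Metal handling rose in 10 of 21 genes and fell in 2 (median 0.63). Beside MT2A, the importers SLC39A8 (2.59) and SLC11A2 (2.54) and the zinc-sensing factor MTF1 (2.19) rose. The 2 that fell were the iron exporter SLC40A1, at 8.24 and 8.04 in control and 6.30 and 5.69 after dust (4.41-fold, adjusted p = 2.66e-05, or -0.65 and adjusted p = 0.0753 by its other probe), and the phagosomal metal pump SLC11A1 (-1.09). Both dust arrays of SLC40A1 lay below both controls, 1 of them at background.

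In the list of tryptophan, arginine, NAD and purine salvage 11 of 21 rose and 2 fell (median 0.57). GCH1, the first enzyme of tetrahydrobiopterin synthesis, measured 5.13 and 5.09 in control and 10.47 and 9.81 after dust, at background in control, and rose at least 21.9-fold (adjusted p = 1.61e-06). SAT1, which breaks down polyamines, rose 4.21-fold and KYNU, kynureninase, 2.84-fold. GCHFR, the feedback inhibitor of the first enzyme, fell with a difference of -0.88, so the enzyme and its inhibitor moved in opposite directions. Of 14 genes of surface proteolysis and clotting 7 rose and 0 fell (median 1.03, or 0.55 with 2 members set to their bounds).

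Stress and growth lists rose more weakly. Of 19 genes of endoplasmic reticulum stress 13 rose and 1 fell (median 0.55), or 9 and 2 with median scaling. PPP1R15A, which restores translation after stress, had a difference of 2.23, ATF5 1.82 and the chaperone HSPA5 1.09, all called. The stress factors ATF4 (0.06) and DDIT3 (-0.24) were not called, but DDIT3 was called lower with median scaling (-0.71, adjusted p = 0.0242) and with housekeeping scaling (-0.61, adjusted p = 0.0485). Of 31 genes of ribosome biogenesis 14 rose and 4 fell (median 0.29), or 8 and 4 with median or housekeeping scaling. Of 20 heat shock chaperones 9 rose and 2 fell (median 0.39), or 5 and 3 with median scaling.

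Among the 500 named genes with the brightest probes in control cells the largest rises were smaller than those above. PLEK, a protein kinase C substrate of leukocytes, measured 12.19 and 12.59 in control and 13.98 and 13.57 after dust and rose 2.62-fold (adjusted p = 0.000374). SQSTM1, the autophagy receptor p62, measured 12.19 and 12.49 in control and 13.93 and 13.52 after dust and rose 2.62-fold (adjusted p = 0.000146). CCL5, a chemokine for T cells, measured 12.07 and 12.44 in control and 13.56 and 13.50 after dust and rose 2.42-fold (adjusted p = 0.000214). MCOLN2, a lysosomal cation channel, rose 2.93-fold, the actin bundler FSCN1 1.79-fold, the hyaluronan receptor CD44 1.76-fold, the peroxidase PRDX1 1.75-fold and NBPF9 1.71-fold. Their groups did not overlap, which is part of the rule that named them.

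Where a gene had more than 1 kept probe, the probes sometimes gave changes of different size. Among genes named above, the other probe gave a smaller difference for LAMP3 (3.60 against 6.95), GCH1 (1.64 against 5.03), SOCS3 (1.69 against 4.37), TRAF1 (2.82 against 5.31), NEK2 (-1.73 against -3.67), FBXO32 (-0.60 against -2.72), SLC39A3 (-0.70 against -1.79), P2RY2 (-1.88 against -2.94) and CCNG2 (-2.01 against -3.06). The difference was also smaller for BCL2L1 (1.78 against 2.60), BID (2.28 against 2.87), TMEM217 (2.84 against 3.86) and WIPF1 (-3.16 against -3.97). For LAMP3, GCH1, SOCS3, TRAF1, FBXO32 and CCNG2 it lay under the bound given above, which holds for the probe used alone. The other probe gave a larger difference for CD44 (3.54 against 0.82), MCL1 (1.62 against 0.77), CSF2RA (1.43 against 0.60) and KIT (-3.53 against -2.52). It did so for CD83 as well (6.93 against 6.13). Each of these kept its direction and its call, so the size of the change is less certain than its sign. Leaving out 1 array moved a called value by over 1.5-fold for NEK2 (-4.74 to -2.63), MNDA (-4.06 to -2.45), ADM (4.16 to 5.28) and ARRDC3 (1.10 to 2.34). The brightest probe was chosen anew each time an array was left out. The range for HGD (0.85 to 3.09) therefore mixes its probes. The lower end of the range for KIT (-3.59 to -2.23) lay near the value of its other probe.

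Several lists gave no single direction. Of 25 genes of glucose uptake and glycolysis 6 rose and 3 fell (median -0.11), or 5 and 6 with median scaling. Of 23 genes of glutathione and thioredoxin 8 rose (34.8%) and 6 fell (26.1%), or 7 and 9 with median scaling. Their differences ran from -2.86 to 4.33 (median -0.14). Its mid-ranked risers were SRXN1 (20.1-fold), GCLM (10.8-fold) and SLC7A11 (at least 3.86-fold, at background in control). Of 35 lysosomal genes 3 rose and 7 fell (median 0.03, negative under median scaling). Of 21 integrins and ICAM genes 3 rose and 2 fell (median -0.10), or 2 and 9 with median scaling.

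BEAS-2B cells, given the higher extract concentration of 0.25%, moved fewer genes at 3 h, with 505 rises (3.26%) and 342 falls (2.21%), together 5.47%. Of the 200 mid-ranked risers of THP-1 49 were also called higher in BEAS-2B (24.5%, against 3.67% of named genes) and 3 lower (1.5%). The same figures were 7 of 10 for the NF-kB genes and 1 of 16 for the genes of vesicle traffic, membranes and cytoskeleton. Of the 1606 genes that fell at least 2-fold 94 were called lower in BEAS-2B (5.85%, against 2.63%) and 27 higher (1.68%). The difference between the lines in the 3 h effect was called for 26.6% of features, 11.7% higher in THP-1 and 14.8% lower. Concentration and line differ together in this comparison and cannot be told apart, and a gene that BEAS-2B cells do not express cannot fall there.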

How the data were processed

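The 12 samples of total RNA were measured on Illumina HumanHT-12 arrays. For 47320 probes an array, a table of unnormalized values deposited by the authors gives 4 quantities per the file headers: mean bead intensity, detection p-value, bead count and the bead standard error. GenomeStudio 2011.1 is the tool the submitters' processing notes name. The deposited value table holds quantile-normalized intensity, as read from its values, and served as an alternative. The median bead count was 21 per probe on each array and the median bead standard error 5.51 to 5.89% of the signal. The number of arrays limits the precision. No value column was left unmapped (0 columns).

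The raw intensities were background-corrected and quantile-normalized with neqc (limma 3.58.1, R 4.3.3, offset 16, negative controls inferred from detection p). A probe was kept if some group had detection p under 0.01 on each of its 2 arrays (19045 probes). A single symbol belonged to 30112 probes of the table, several to 8, and 17200 were left unnamed, while 30073 symbols were updated through Entrez identifiers. For a gene with several kept probes (2906 genes) the brightest was used, which gave 15489 features, 11422 of them named genes. A model of 6 group means over 12 arrays was fitted by lmFit, with variances moderated by eBayes (degrees of freedom: 6 residual, 4.3 prior), and p-values were adjusted by Benjamini-Hochberg over all features. The script was tested on simulated data. Where every array of a group had detection p of 0.01 or more, a change is given as at least N-fold against the lowest detected signal of that array or the probe's own value, whichever was higher. The median SD between replicates was 0.154 log2 in control and 0.158 at 3 h.

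Genes were named by fixed ranks: every 8th of ranks 51 to 250 of the rises, ranks 6 to 25 and every 60th later rank of the falls, the 8 largest rises and falls among the 500 genes with the brightest probes, and up to 4 members per list with the smallest p plus 2 called against the rest. A selection of the later ranks of the falls is printed with a summary of all of them. Further list members are named to show the composition of a list. The comparisons, lists and rules were chosen with earlier results of these data known, and the sorting of mid-ranked risers by role was made after their values were seen. Alternatives were other background corrections, scalings, arrays in the fit, filters and probes, the authors' values, the replicate block and leaving out each array. The 12 arrays carry 1 slide number, so slide cannot differ between groups. Promoter and microRNA sequences are from RefSeq (GRCh38.p14).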

Additional observations from a re-analysis of the deposited data

Results flagged for a closer look

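Of the genes named by rank above, 10 are given whose 3 h effect differed between the lines (limma interaction, adjusted p under 0.05 over all features). They had the smallest p of that test among the rises and the falls so named. Naming by rank rests on the THP-1 change, which is a term of the tested difference, so the choice favours a small p. The difference was called for 91% of mid-ranked risers and 77.2% of named genes that fell at least 2-fold. Each value is the THP-1 difference minus the BEAS-2B difference on the log2 scale. It was 3.73 for PDGFA, 3.59 for CD80, 3.55 for CCM2L, 3.38 for FJX1 and 3.24 for SAMSN1. It was -3.88 for LMO2, -3.71 for GFI1, -3.57 for WIPF1, -3.42 for GPR18 and -2.68 for IRX3. CCM2L, SAMSN1, CD80, GFI1, LMO2 and GPR18 were not detected in BEAS-2B cells in control or at 3 h. The BEAS-2B part of their values is thus a change between background signals, such as 0.47 for LMO2. CCM2L, SAMSN1 and CD80 stayed undetected there after dust, whereas a fall of GFI1, LMO2 or GPR18 could not have been seen. The BEAS-2B cells received 0.25% extract and the THP-1 cells 0.1%, so line and concentration cannot be told apart. With 2 arrays a group no array could be examined as standing apart from its group.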

How the results depend on the processing

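Falls outnumbered rises under every alternative run. With the 4 compared arrays alone 2270 of 13338 features rose (17%) and 3122 fell (23.4%). The counts of 2966 rises and 4101 falls became 1650 rises with median scaling and 1934 with housekeeping scaling, and leaving out 1 array gave 2513 to 2757 rises and 3377 to 3896 falls. The 1880 falls of at least 2-fold became 3121 with median scaling, 1046 without background correction, 1048 in the authors' values and 1137 among features detected on all 4 arrays, and 1796 to 2111 with 1 array left out. The 1429 rises of at least 2-fold became 923 with median scaling and 894 among features detected on all 4 arrays, and 1424 to 1576 with 1 array left out. With a replicate block, taking the number in the titles as a pair, 3226 features rose and 4359 fell, with 1444 and 1883 at 2-fold or more, no named gene lost its call or changed direction, and AURKB, KIF2C, NCAPG, PLK4, CD86 and TNFSF15 became called (adjusted p from 0.000986 to 0.0105). Arrays of the same number deviated together with correlations over features of 0.341 (control and 1 h), 0.286 (control and 3 h) and 0.238 (1 h and 3 h), but with 2 pairs a comparison the numbers do not settle a pairing.

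Among named genes the reversals were in values near 0 or between probes. With median and housekeeping scaling the difference was 0.09 and 0.19 for AZU1, -0.20 and -0.10 for CD14, 0.06 and 0.16 for CTSG, and 0.05 and 0.15 for ELANE. S100A8 was at -0.05 with median scaling, and CD200 at 0.07 with housekeeping scaling and 0.16 without the filter. By another probe IRAK3 was at 0.49, LYZ at 0.18, RN7SK at 0.89 and TNFSF14 at -0.78. Leaving out 1 array gave a range of -0.10 to 0.23 for ATF4, -0.08 to 0.00 for AZU1, -0.12 to 0.04 for CTSG, -0.50 to 0.26 for LYZ and -0.39 to 0.17 for RN7SK. BRCA1, DCTN1 and TENT2 were not called with the THP-1 arrays alone (adjusted p = 0.0615, 0.0625 and 0.102), nor with the 4 arrays alone (0.0771, 0.092 and 0.132). Without the filter BRCA1 and ZEB2 were not called (0.06 and 0.0983), and neither was CSF2RA with the 4 arrays alone (0.0525). The cause of these changes was not tested. Without background correction 58 of 178 named genes had a difference smaller by over 1.5-fold, which bears most on genes near background, where signal over background limits the size of any change.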

Other observations

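Probes named for small noncoding RNAs were read with the others, and the grouping of these RNAs was made after their values were seen. Of 97 small nucleolar RNA genes 46 were detected on both control arrays and 66 at 3 h, so many were kept through the group where they are high. Of the 46 detected in control 32 rose and 1 fell (69.6% higher), and of all 97 62 rose (median difference 0.79), while of 12 host genes of small nucleolar RNAs 5 rose and 3 fell (median 0.00). Of 42 microRNA genes and hosts 21 rose and 6 fell, and of the 18 of these detected in control 8 rose and 5 fell. For comparison, of the 1524 named genes in the lowest of 4 bins of control level that were detected in control 331 rose (21.7%) and 451 fell. The 109 small nucleolar RNAs and hosts together held 67 rises, or 44 with median scaling and 54 with housekeeping scaling. The small nucleolar RNA genes had a median control level of 5.76, near background. Whether the probes named for small RNAs read the short RNAs or longer transcripts that hold them was not tested. VTRNA2-1, a vault-family RNA made by RNA polymerase III, measured 5.67 and 6.13 in control and 8.54 and 9.22 after dust and rose 7.9-fold (adjusted p = 5.07e-06). VTRNA1-1, a vault RNA, measured 6.20 and 6.06 in control and 7.44 and 7.75 after dust and rose 2.77-fold (adjusted p = 0.000181). RPPH1, the RNA of ribonuclease P, measured 5.79 and 6.21 in control and 7.55 and 7.73 after dust and rose 3.12-fold (adjusted p = 2.54e-05). RN7SK, which holds the elongation factor P-TEFb inactive, was not called (difference -0.11, adjusted p = 0.732), while its other probe was higher (0.89, adjusted p = 0.0181). Dust arrays lay above control arrays in the first 3 of these RNAs, and those of RN7SK overlapped with control. VTRNA2-1, VTRNA1-1, RPPH1 and RN7SK belong to a group of 10 small RNAs made by RNA polymerase III. Of these 10, 4 rose, 0 fell and the rest were not called. MIR3142HG, the host transcript of miR-146a, was at background in control and rose at least 23.2-fold (adjusted p = 2.84e-06).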
